A study of Mus musculus with 89 samples.

Results

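Glycolysis and hypoxia response genes were followed in mouse forebrain at embryonic day 18.5, on 89 arrays that each held the RNA of 1 embryo. The group was defined by gene name: 36 genes in 4 families, of which 34 had a probe set with a single gene symbol, out of 19505 genes so named among the 22206 probe sets of the array. Glycolytic enzymes made up 16 of them (14 measured), sugar and lactate transporters with phosphofructokinase regulators 5, hypoxia-inducible factor (HIF) alpha subunits with their prolyl hydroxylases 4, and other hypoxia-inducible genes 11. Gpi1 (glucose-6-phosphate isomerase) and Eno1 (alpha-enolase) carried no single symbol in the probe table and were not analysed here. Of the 34 measured genes 31 lay at or above the median signal of all probe sets; the glucose-phosphorylating enzyme Hk2, the vasodilator peptide Adm and the carbonic anhydrase Car9 lay below it.

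Ts65Dn embryos (n = 23, 13 females and 10 males) have a freely segregating extra chromosome, made of distal chromosome 16, rich in orthologues of human chromosome 21, and of proximal chromosome 17. Their euploid littermates (EupTs65Dn, n = 18, 9 females and 9 males) lack it. Ts66Yah embryos (n = 24, 13 females and 11 males) carry the chromosome 16 part without the chromosome 17 part, and were set against euploid littermates (EupTs66Yah, n = 24, 11 females and 13 males). Each colony gave 6 litters, each from 1 dam and of 4 to 11 embryos, on a mixed B6 and C3H background; Ts65Dn dams passed on the extra chromosome, and the Ts66Yah colony was expanded by in vitro fertilisation. The series' own design account counts 25 Ts66Yah arrays, where 24 carry that label here. None of the groups was treated, and the pregnant dams of all 4 groups were anaesthetised with isoflurane before the embryos were collected. The comparisons ask whether either trisomy alters the expression of these genes; both genes of the group on chromosome 17, Epas1 and Vegfa, lie beyond the extra part.

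Values are log2 probe set signals. Array means lay between 5.26 and 5.33 in the Ts65Dn colony and between 6.05 and 6.41 in the Ts66Yah colony, so each trisomy was compared only with its own euploid group. The probe sets of EupTs66Yah replicate 16, here the low-spread array, had a standard deviation of 1.13, while those of its group otherwise had 2.23 to 2.39; results were computed with this array and also with it left out. Replicates 9, 14, 17, 21 and 22 of EupTs66Yah (2.23 to 2.27) likewise fell under the smallest standard deviation in Ts66Yah, 2.30, and together with replicate 16 form the 6 narrower arrays. In 4 arrays (Ts65Dn replicate 18, Ts66Yah replicates 13 and 24, EupTs66Yah replicate 24) the triplicated chromosome 16 genes stood where the opposite genotype of the colony stood; these are the discordant arrays. The forebrain gene Lhx2 averaged 9.11 in Ts65Dn, 9.10 in EupTs65Dn, 9.64 in Ts66Yah and 9.59 in EupTs66Yah, far above the array median. Emx1, of the dorsal forebrain, averaged 5.44, 5.46, 5.97 and 6.002 in the same groups, near the array medians of the Ts65Dn colony (5.34 in Ts65Dn) and below those of the Ts66Yah colony (6.398 in Ts66Yah and 6.36 in EupTs66Yah). The midbrain and hindbrain genes En1 (3.16 and 3.10) and En2 (3.90 and 3.74) lay below the array medians in Ts65Dn and EupTs65Dn. In Ts66Yah and EupTs66Yah En1 averaged 6.19 and 6.26, En2 6.77 and 6.64 and the hindbrain gene Hoxb2 6.52 and 6.43, near or above the array medians, so these levels do not set forebrain apart from hindbrain in that colony. No gene of the marker lists of neurons, glia, vessels, blood, choroid plexus, hindbrain or muscle passed in either genotype comparison. In whole forebrain, fewer cells of a type and less RNA per cell cannot be told apart.

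Glycolysis splits glucose into pyruvate in the cytoplasm, and lactate dehydrogenase turns pyruvate into lactate. When oxygen is ample, prolyl hydroxylases (Egln1, Egln3) mark HIF alpha subunits (Hif1a, Epas1) for degradation; when it is scarce, the subunits persist and raise transcription of glycolytic enzymes, glucose and lactate transporters and genes of vessel growth, mitophagy and growth arrest. HIF binds DNA at the core letters ACGTG or GCGTG, and the fetal brain, which draws much of its energy from glucose, expresses both arms of this programme.

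Sequences upstream of 4 of the genes compared below are shown, and all 4 hold marked letters, which other genes compared below lack. The letters ACGTG or GCGTG, read on either strand (CACGT or CACGC on the strand shown), are in capitals. The sequences run for 250 bases up to the most 5′ transcript start, from the RefSeq promoter table of GRCm38.p6. Ddit4, an inhibitor of mTORC1 growth signalling, is at chr10:59951771-59952020 (minus strand); Aldoc, the brain aldolase, at chr11:78322823-78323072 (plus strand); Ldha, the lactate dehydrogenase A subunit, at chr7:46845554-46845803 (plus strand); and Bnip3, a mitophagy receptor, at chr7:138909507-138909756 (minus strand).
Ddit4: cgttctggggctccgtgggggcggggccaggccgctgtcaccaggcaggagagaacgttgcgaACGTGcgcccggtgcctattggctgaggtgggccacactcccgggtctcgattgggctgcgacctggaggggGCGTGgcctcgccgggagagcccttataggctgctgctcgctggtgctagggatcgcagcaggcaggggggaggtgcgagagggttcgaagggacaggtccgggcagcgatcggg
Aldoc: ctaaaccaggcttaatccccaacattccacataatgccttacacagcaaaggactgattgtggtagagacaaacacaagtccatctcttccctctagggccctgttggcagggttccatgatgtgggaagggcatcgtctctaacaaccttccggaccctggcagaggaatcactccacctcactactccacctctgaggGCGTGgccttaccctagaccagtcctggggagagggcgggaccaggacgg
Ldha: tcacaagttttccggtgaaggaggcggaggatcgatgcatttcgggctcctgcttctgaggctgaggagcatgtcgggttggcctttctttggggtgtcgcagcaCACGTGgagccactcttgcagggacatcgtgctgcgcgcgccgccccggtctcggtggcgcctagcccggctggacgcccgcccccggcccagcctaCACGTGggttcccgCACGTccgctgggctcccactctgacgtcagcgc
Bnip3: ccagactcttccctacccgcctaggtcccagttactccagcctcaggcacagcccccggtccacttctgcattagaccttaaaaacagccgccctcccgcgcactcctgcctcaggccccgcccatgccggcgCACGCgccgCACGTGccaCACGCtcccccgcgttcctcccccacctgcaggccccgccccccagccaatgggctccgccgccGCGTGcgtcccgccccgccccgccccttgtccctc
The Ldha and Bnip3 windows held 5 matches each, counting both strands of a CACGTG as 2 overlapping matches; Ddit4 held 2 and Aldoc 1. Of the 32 genes of the group found in the promoter table, 25 (78.1%) held at least 1 match, against 38.6% of the 27025 genes of the table. No match was held by Hk1, Gpi1, Aldoa, Tpi1, Eno2, Pkm and Vegfa. ACGTG alone was present in 17 of 32 (53.1%), against 16.5% of all genes. By family, either motif was found in 10 of 16 glycolytic enzymes, 4 of 4 transporters and regulators, 3 of 3 HIF subunits and hydroxylases and 8 of 9 other hypoxia-inducible genes. A match describes these letters only; Slc2a3, Epas1, Bnip3l and Ndrg1 had no entry in the table.

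In Ts65Dn forebrain most hypoxia-inducible genes had lower means than in euploid littermates, and the glycolytic enzymes were split between higher and lower, with no gene past the test. Of 11 other hypoxia-inducible genes 9 had a lower mean in Ts65Dn than in EupTs65Dn (median log2 change -0.069), against a median of -0.0021 over all probe sets, of which 49.02% had a higher mean (44.98% of those at or above the median signal). The 30 measured HIF pathway and hypoxia-inducible genes outside the group were split, with 14 higher and 16 lower means (median -0.0054). Of 14 glycolytic enzymes 8 had a higher and 6 a lower mean (median 0.0038). No gene of the group had an adjusted p under the threshold of 10% (limma, Benjamini-Hochberg over the 22206 probe sets), where 0.491% of all probe sets did. At an unadjusted p under 0.05 there were 4 of 34 (Ddit4, Vegfa, Adm and Aldoc), against 5.79% of all probe sets. By the marginal criterion of the submitters, an unadjusted p under 0.01 and a ratio under 0.8 or over 1.2, there were 0, against 1.11%.

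Ddit4 stood closest to the threshold. Its signal ran from 7.57 through a median of 7.93 to 8.41 in Ts65Dn, against 7.86, 8.25 and 8.39 in EupTs65Dn. The groups overlapped, but 20 of 23 Ts65Dn values were under the euploid median and 9 under the lowest euploid embryo. Ts65Dn averaged 7.94 ± 0.23 (SD, n = 23) and EupTs65Dn 8.19 ± 0.18 (SD, n = 18), a log2 change of -0.26 (SE 0.068, 0.837-fold, limma adjusted p = 0.11). Blocking on litter took it past the threshold (log2 -0.23, adjusted p = 0.065), where 0.527% of all probe sets did. It also passed in the methods' t-test (adjusted p = 0.091, with 0.518% of all probe sets passing) and without Ts65Dn replicate 18 (log2 -0.27, adjusted p = 0.039, with 0.54% passing). Over the alternatives its log2 change ran from -0.28 to -0.22 and its adjusted p from 0.039 to 0.58, the last without litter TS113.

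Vegfa, the vascular endothelial growth factor, ran from 6.87 through a median of 7.08 to 7.47 in Ts65Dn, against 6.89, 7.23 and 7.88 in EupTs65Dn. In 18 of 23 Ts65Dn embryos it lay below the euploid median, and 2 lay below every euploid embryo. The log2 change was -0.19 (SE 0.066, 0.879-fold, limma adjusted p = 0.53). Adm, adrenomedullin, ran from 3.60 through 4.83 to 5.97 in Ts65Dn, against 4.18, 5.27 and 6.24 in EupTs65Dn. It had the widest difference of the group, log2 -0.42 (SE 0.16, adjusted p = 0.66), with 19 of 23 Ts65Dn values under the euploid median; its signal is low and its spread within groups wide (SD 0.53 in Ts65Dn and 0.55 in EupTs65Dn). The histone demethylase gene Kdm3a (log2 -0.14) and Car9 (-0.27) also had lower means, as did the mitophagy receptor genes Bnip3 (-0.069) and Bnip3l (-0.032), the HIF-inducible ankyrin gene Ankrd37 (-0.056) and the collagen prolyl hydroxylase gene P4ha2 (-0.060). P4ha1 (0.014) and Ndrg1 (0.051), a stress-inducible gene, had slightly higher means. None of these passed, with limma adjusted p between 0.89 and 1.0.

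Among the glycolytic enzymes Aldoc was the one nearest a difference in the Ts65Dn colony. It ran from 9.20 through a median of 9.47 to 9.66 in Ts65Dn, against 9.10, 9.34 and 9.49 in EupTs65Dn. Although the ranges overlapped, 19 of 23 Ts65Dn embryos lay above the euploid median and 9 above the highest euploid embryo (log2 0.12, SE 0.043, 1.09-fold, limma adjusted p = 0.54). Ldha ran from 9.46 through 10.10 to 10.44 in Ts65Dn, against 9.75, 10.19 and 10.49 in EupTs65Dn (log2 -0.10, SE 0.069, adjusted p = 0.93). The low end was made up of 3 Ts65Dn embryos below every euploid one. The glycolytic enzymes as a family were measured closely: the median half-width of their 95% intervals was 0.10 on the log2 scale. Gapdh, the glyceraldehyde-phosphate dehydrogenase often used as a loading control, differed by 0.0037 (95% interval -0.065 to 0.073). The interval of Pkm, pyruvate kinase, ran from -0.083 to 0.060, that of Pgk1, phosphoglycerate kinase, from -0.079 to 0.11 and that of Hk1, the main hexokinase of brain, from -0.074 to 0.13.

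The transporters and regulators of phosphofructokinase did not pass either. Pfkfb4, which sets the level of the phosphofructokinase activator fructose 2,6-bisphosphate, ran from 6.59 through 7.01 to 7.28 in Ts65Dn, against 6.41, 6.90 and 7.44 in EupTs65Dn (log2 0.10, SE 0.067, limma adjusted p = 0.93). Pfkfb3, its paralogue, ran from 7.99 through 8.18 to 8.60 in Ts65Dn, against 7.91, 8.26 and 8.56 in EupTs65Dn (log2 -0.067, SE 0.056, adjusted p = 0.95). For Pfkfb4 the Ts65Dn values all lay within the euploid range, with 17 of 23 above the euploid median. The ranges of Pfkfb3 nearly coincided, with 15 of 23 Ts65Dn values below the euploid median. The neuronal glucose transporter gene Slc2a3 (log2 -0.085) and the lactate transporter genes Slc16a1 (0.030) and Slc16a3 (-0.066) had intervals that spanned 0. Of the oxygen-sensing genes, Egln1 ran from 8.69 through 8.86 to 9.30 in Ts65Dn, against 8.60, 8.87 and 8.98 in EupTs65Dn. Its medians were alike and 7 Ts65Dn embryos lay above the highest euploid one (log2 0.080, SE 0.046, adjusted p = 0.91). Epas1, the HIF-2 alpha subunit, ran from 4.98 through 5.88 to 6.23 in Ts65Dn, against 5.42, 5.94 and 6.26 in EupTs65Dn (log2 -0.065, SE 0.087, adjusted p = 0.98). Hif1a (log2 -0.032) and Egln3 (0.018) were within 0.05 of no change.

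**Figure D1:**
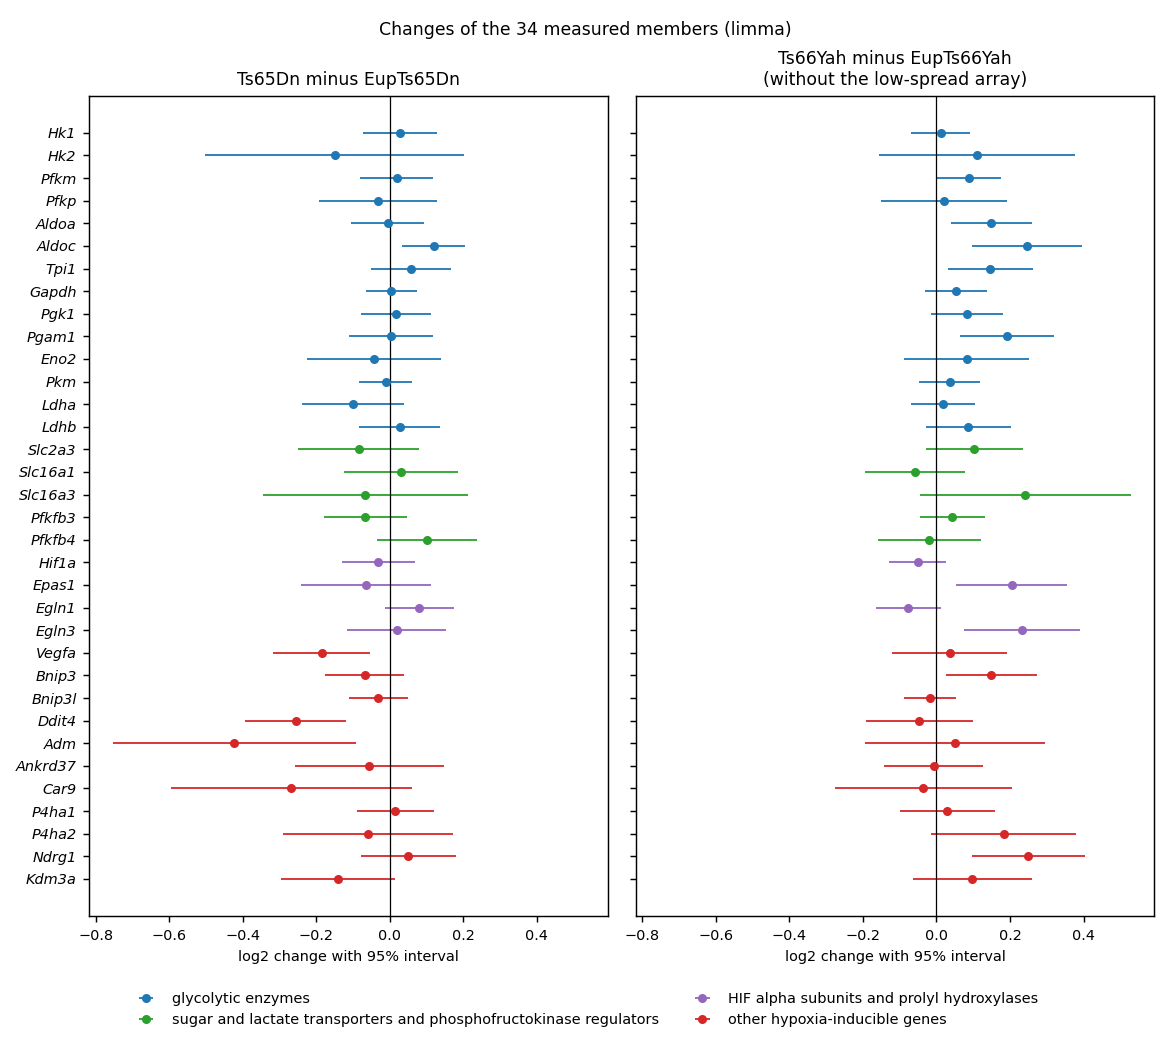
Log2 change (horizontal axis) of the 34 measured genes with 95% intervals from limma, Ts65Dn minus EupTs65Dn on the left and Ts66Yah minus EupTs66Yah without the low-spread array on the right, coloured by family. Most hypoxia-inducible genes lie left of 0 in Ts65Dn (9 of 11), while all 14 glycolytic enzymes lie right of 0 in Ts66Yah (10 of 14 with each array centred on its median).

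In Ts66Yah forebrain the measured glycolytic enzymes had higher means than in euploid littermates, except for 4 of 14 once each array was centred on its median, and none passed the test. All 14 were higher with all arrays (median log2 change 0.24) and without the low-spread array (median 0.084). Among all probe sets at or above the median signal, 88.45% and 62.61% had a higher mean in these settings (medians 0.12 and 0.026). Without the 6 narrower arrays 13 of 14 enzymes were higher (median 0.051, against -0.00013 with 49.91% higher among those probe sets), and likewise 13 of 14 with array spread as a covariate (median 0.044, against -0.0043 with 48.13%). With each array centred on its own median 10 of 14 were higher (median 0.040), while the median of all probe sets moved to -0.040. The other hypoxia-inducible genes had a higher mean in 9 of 11 with all arrays and 7 of 11 without the low-spread array (medians 0.13 and 0.036), in 9 of 11 without the 6 narrower arrays (0.055) and in 5 of 11 after centring. The part of array spread in these values was not tested beyond these settings.

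No gene of the group passed the threshold in the Ts66Yah colony, with all arrays (0.171% of all probe sets called) or without the low-spread array (0.932%). The methods' t-test also called none of them, with 0.203% and 0.905% of all probe sets called, and none passed without the 6 narrower arrays (0.342%). The marginal criterion was met by 2 (Epas1 and Ndrg1) with all arrays, against 2.13% of all probe sets, and by 0 without the low-spread array, against 1.9%. At an unadjusted p under 0.05 there were 7 of 34 with all arrays, against 10.2% of all probe sets, and 9 of 34 without the low-spread array, against 12.1%. All 9 of these were higher: 5 enzymes (Aldoc, Pgam1, Aldoa, Tpi1 and the muscle-type phosphofructokinase gene Pfkm), Egln3, Epas1, Ndrg1 and Bnip3. Without the low-spread array and the discordant arrays, Aldoc, Egln3 and Ndrg1 passed (limma adjusted p = 0.069, 0.069 and 0.070; log2 0.28 each), where 1.47% of all probe sets did.

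Aldoc, an aldolase enriched in astrocytes, ran from 9.89 through a median of 10.44 to 11.02 in Ts66Yah, against 9.78, 10.18 and 10.73 in EupTs66Yah without the low-spread array, which stood at 4.87. The ranges overlapped broadly, with 18 of 24 Ts66Yah embryos above the euploid median. The log2 change was 0.25 (SE 0.074, 1.19-fold, limma adjusted p = 0.13) and 0.47 (SE 0.22, adjusted p = 0.48) with all arrays. Without the 6 narrower arrays it was 0.18 (adjusted p = 0.51). Of 6 radial glia and astrocyte markers 0 passed and all 6 had a higher mean in Ts66Yah without the low-spread array (median log2 change 0.11); their mean level ran from 8.75 to 9.60 in Ts66Yah and from 8.72 to 9.51 in EupTs66Yah, and their part in the Aldoc values was not tested. Pgam1, phosphoglycerate mutase, ran from 9.73 through 10.08 to 10.50 in Ts66Yah, against 9.52, 9.93 and 10.31 in EupTs66Yah without the low-spread array (log2 0.19, SE 0.064, adjusted p = 0.18). In it 19 of 24 Ts66Yah embryos lay above the euploid median and 6 above the highest euploid embryo. Its log2 change ran from 0.13 to 0.24 over the alternatives without the low-spread array, and its adjusted p from 0.10 to 0.56. Tpi1, triosephosphate isomerase, showed the same counts, 19 and 6, with a log2 change of 0.15 (SE 0.057, adjusted p = 0.28) and of 0.24 (SE 0.11, adjusted p = 0.47) with all arrays. It ran from 9.18 through 9.64 to 10.19 in Ts66Yah, against 8.99, 9.51 and 9.75 in EupTs66Yah without the low-spread array.

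Ndrg1 ran from 8.45 through a median of 8.75 to 9.40 in Ts66Yah, against 7.84, 8.55 and 9.02 in EupTs66Yah without the low-spread array. Only 2 of 24 Ts66Yah embryos lay below the euploid median and 4 lay above every euploid embryo (log2 0.25, SE 0.076, 1.19-fold, limma adjusted p = 0.13). With all arrays the log2 change was 0.32 (adjusted p = 0.30). Over the alternatives without the low-spread array it ran from 0.17 to 0.29, and the adjusted p from 0.070 to 0.43. Egln3, the prolyl hydroxylase that is itself a HIF target, ran from 7.98 through 8.59 to 9.12 in Ts66Yah, against 7.67, 8.39 and 8.82 in EupTs66Yah without the low-spread array. As in Ndrg1, 22 of 24 Ts66Yah embryos lay above the euploid median (log2 0.23, SE 0.079, 1.18-fold, adjusted p = 0.20). With array spread as a covariate the log2 change of Egln3 was 0.12 (adjusted p = 0.56), and without the 6 narrower arrays 0.15 (adjusted p = 0.58). Epas1 ran from 6.61 through 7.01 to 7.49 in Ts66Yah, against 6.38, 6.83 and 7.25 in EupTs66Yah without the low-spread array (log2 0.20, SE 0.075, 1.15-fold, adjusted p = 0.24). Without the 6 narrower arrays its log2 change was 0.21 (adjusted p = 0.41). Endothelial markers, 7 genes of a cell type in which Epas1 is strongly expressed, had a mean level of 8.24 to 8.79 in Ts66Yah and 8.11 to 8.56 in EupTs66Yah; 0 of 7 passed, and 6 of 7 had a higher mean in Ts66Yah without the low-spread array (median log2 change 0.13). All 4 pericyte markers likewise had a higher mean (median 0.11), none past the threshold; the part of these cell types in the Epas1 values was not tested.

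Bnip3 ran from 7.99 through a median of 8.41 to 8.82 in Ts66Yah, against 7.75, 8.26 and 8.67 in EupTs66Yah without the low-spread array, with 20 of 24 Ts66Yah embryos above the euploid median (log2 0.15, SE 0.061, limma adjusted p = 0.31). Its log2 change ran from 0.11 to 0.25 over the alternatives without that array, and its adjusted p from 0.052 to 0.64. Slc16a3, the lactate exporter of hypoxic cells, ran from 5.84 through 6.75 to 7.94 in Ts66Yah, against 5.65, 6.41 and 7.61 in EupTs66Yah without the low-spread array (log2 0.24, SE 0.14, adjusted p = 0.51). Its spread within groups was among the widest of the genes here. Slc2a3 ran from 8.77 through 9.23 to 9.83 in Ts66Yah, against 8.45, 9.17 and 9.50 in EupTs66Yah without the low-spread array (log2 0.10, SE 0.066, adjusted p = 0.55). With array spread as a covariate its log2 change was 0.021 (adjusted p = 0.94), and without the 6 narrower arrays 0.041 (adjusted p = 0.89). Ddit4, the gene nearest the threshold in the Ts65Dn colony, had a log2 change of -0.046 (95% interval -0.19 to 0.099) here, and Vegfa 0.036 (-0.12 to 0.19). In Ddit4 19 of 24 Ts66Yah embryos lay below the euploid median without the low-spread array, and 1 lay above the highest euploid embryo. With all arrays the mean of Ddit4 was higher in Ts66Yah (8.60) than in EupTs66Yah (8.56). Hif1a (-0.051) and Egln1 (-0.076) had lower means without the low-spread array and higher ones with all arrays (0.10 and 0.091). The smallest changes among the enzymes were those of Hk1 (0.011), Ldha (0.018), the platelet-type phosphofructokinase gene Pfkp (0.020) and Pkm (0.036).

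**Figure D2:**
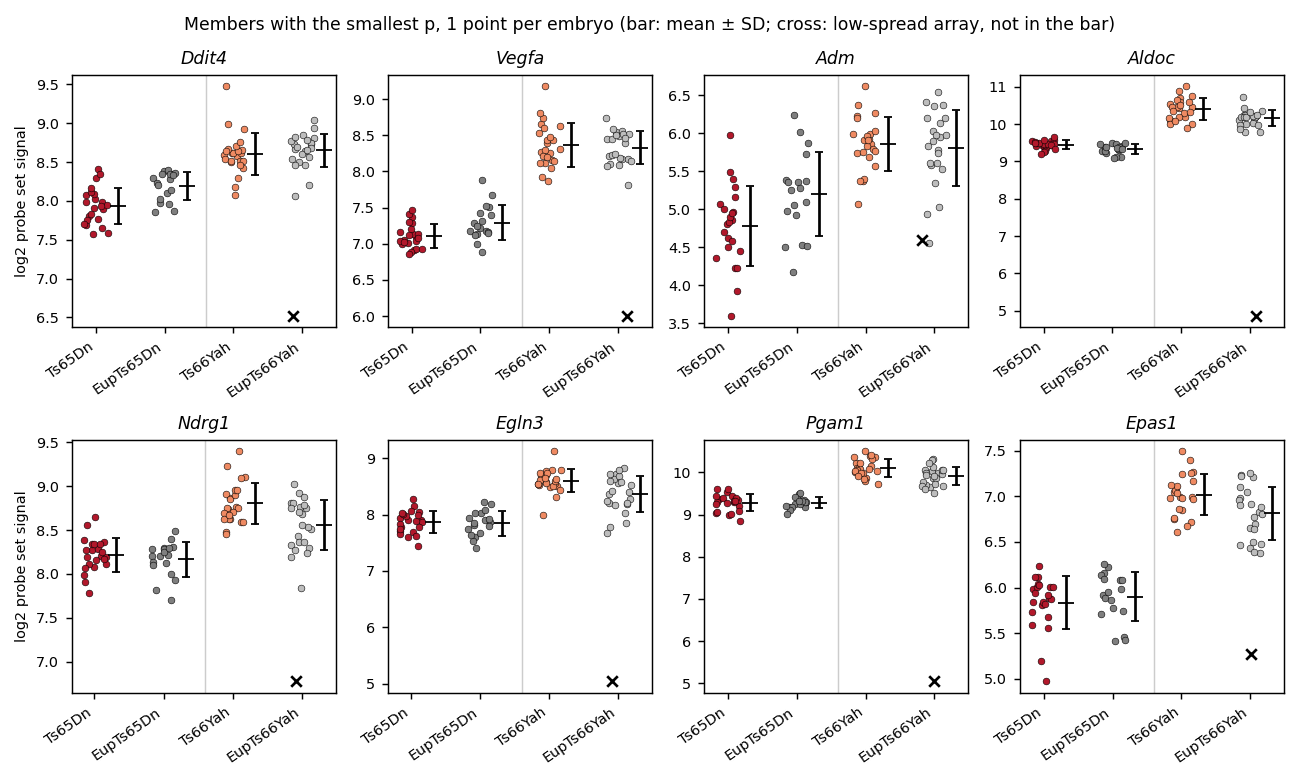
Log2 signal of 8 genes of the group, 1 point per embryo, in Ts65Dn, EupTs65Dn, Ts66Yah and EupTs66Yah; bars show mean ± SD and the cross is the low-spread array, left out of the bar. Ddit4 averaged 7.94 in Ts65Dn and 8.19 in EupTs65Dn, and for each gene the groups of a colony overlap.

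The difference between both effects, Ts65Dn minus Ts66Yah, was tested in 1 fit without the low-spread array. The colonies lay at different signal levels and array spreads (median standard deviation 2.49 in Ts65Dn and 2.37 in Ts66Yah arrays). Whether a log2 change has the same scale in both colonies, above all for low-signal genes such as Adm, was not tested. No gene of the group passed, where 0.149% of all probe sets did; 10 of 34 had an unadjusted p under 0.05, against 7.14% of all probe sets. All 11 other hypoxia-inducible genes had a lower effect in Ts65Dn (median difference -0.22), against a median of -0.0060 over all probe sets and of -0.032 over those at or above the median signal, of which 7018 of 11103 had a lower effect in Ts65Dn. After centring each array on its median 9 of 11 did (median -0.18, against 0.036 over all probe sets). Without centring, 13 of 14 enzymes had a lower effect in Ts65Dn (median -0.079). Their count after centring is not given here. Several lists outside the group lay on the same side, but not all. The effect was lower in Ts65Dn for 6 of 6 radial glia and astrocyte markers (median -0.11), 4 of 4 pericyte markers (-0.19), 6 of 7 endothelial markers (-0.10), 5 of 5 interneuron markers (-0.058), 8 of 10 glucocorticoid-responsive genes (-0.17) and 23 of 30 other genes of the HIF pathway (-0.055). It was higher for 3 of 3 oligodendrocyte precursor markers (0.045), 3 of 3 midbrain and hindbrain markers (0.11) and 3 of 5 muscle markers (0.038). Other glycolysis and pyruvate genes were nearly split, with 15 of 26 lower (-0.045), as were immediate early genes, with 7 of 12 lower (-0.12). Lower effects in Ts65Dn were also seen for 3 of 4 excitatory neuron markers (-0.042) and 3 of 4 microglia markers (-0.074). Forebrain, erythroid and choroid plexus markers were evenly split.

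Bnip3 had a log2 change of -0.069 in Ts65Dn and 0.15 in Ts66Yah, a difference of -0.22 (SE 0.082, limma adjusted p = 0.52). Adm had -0.42 and 0.050, a difference of -0.47 (SE 0.20, adjusted p = 0.62). For Epas1 the changes were -0.065 and 0.20, a difference of -0.27 (SE 0.11, adjusted p = 0.60). Egln1 had the opposite sign, with 0.080 in Ts65Dn and -0.076 in Ts66Yah, a difference of 0.16 (SE 0.062, adjusted p = 0.55); with all 89 arrays its difference was -0.011. Among the enzymes and transporters Pgam1 (difference -0.19, adjusted p = 0.65), the main aldolase gene Aldoa (-0.16, adjusted p = 0.68), Slc2a3 (-0.19, adjusted p = 0.74) and Pfkfb3 (-0.11, adjusted p = 0.78) came nearest. The intervals of these differences were wide, with a median half-width of 0.205 for the hypoxia-inducible genes.

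Between litters no gene of the group passed the test, and those with the smallest p are given. In the Ts65Dn colony Pfkp had litter means from 8.60 in TS42 to 9.06 in TS113 (limma F = 5.56, adjusted p = 0.11). Ddit4 ran from 7.87 in TS11 to 8.30 in TS137 (F = 4.48, adjusted p = 0.20), Slc16a1 from 6.86 to 7.27 (F = 4.16, adjusted p = 0.23) and Ldha from 9.86 to 10.27 (F = 4.04, adjusted p = 0.24). Litter TS42 had the lowest mean of Pfkp, Slc16a1 and Ldha alike, and TS113 the highest of Pfkp and Ldha. Other genes had wider ranges of litter means than Pfkp (1.375-fold). These were Adm (1.745-fold), Car9 (1.706-fold), Slc16a3 (1.481-fold), Hk2 (1.413-fold) and Slc2a3 (1.41-fold). None of the 34 genes was called, where 0.378% of all probe sets were; 8 had an unadjusted p under 0.05, against 10.7% of all probe sets.

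In the Ts66Yah colony, without the low-spread array, Vegfa had the smallest p of the group between litters, from 8.10 in WT12 to 8.60 in WT18, a 1.41-fold range (limma F = 6.53, adjusted p = 0.10). The litter means of Slc16a3 (1.55-fold) and Car9 (1.46-fold) lay further apart. Vegfa lay at the threshold: it passed with sex added to the fit, with each array centred on its median and without litter WT15. Pfkfb4 ran from 7.63 in WT11 to 8.05 in WT19 (F = 4.97, adjusted p = 0.16), Kdm3a from 7.43 in WT11 to 7.86 in WT18 (F = 3.61, adjusted p = 0.26) and Bnip3 from 8.21 in WT18 to 8.50 in WT19 (F = 3.26, adjusted p = 0.31). WT11 and WT12 were low in Vegfa, but the order of litters differed from gene to gene. In this colony 0 of 34 were called, against 0.0901% of all probe sets, and 7 had an unadjusted p under 0.05, against 11.5%.

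**Figure D3:**
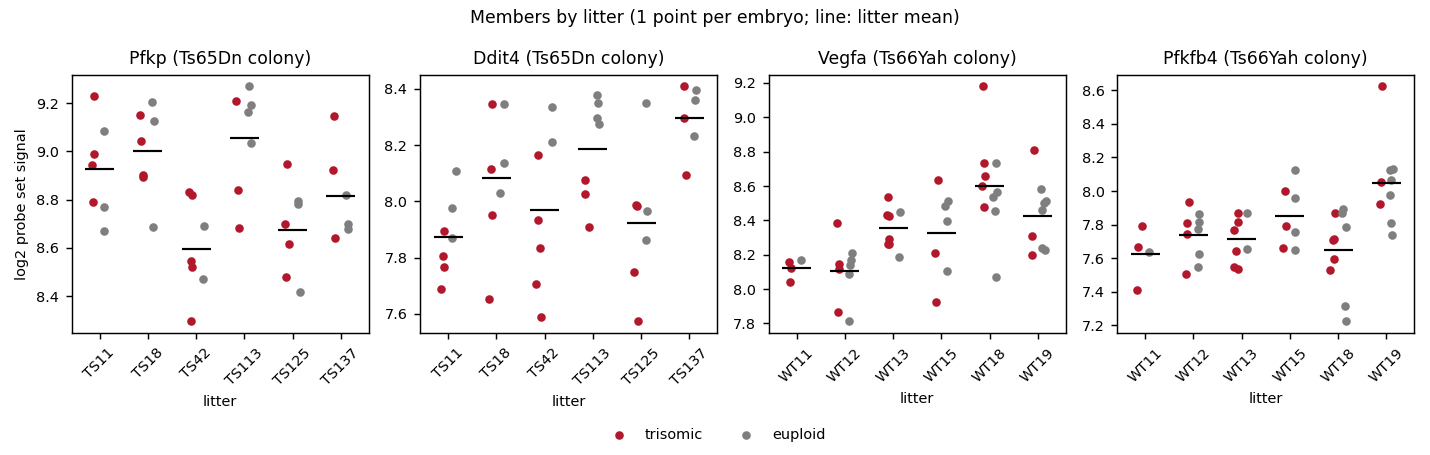
Log2 signal (vertical axis) by litter for Pfkp and Ddit4 in the Ts65Dn colony and Vegfa and Pfkfb4 in the Ts66Yah colony without the low-spread array; red points are trisomic and grey points euploid embryos, and lines are litter means. Litter means of Pfkp run from 8.60 to 9.06 and those of Vegfa from 8.10 to 8.60.

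The genes differed widely in how far embryos of one group varied. Gapdh had a standard deviation within groups of 0.082 in the Ts65Dn colony, narrower than all but 0.19% of probe sets, and Pkm one of 0.088 (0.28%). Bnip3l was wider than both there, with 0.11 (1.04%). In the Ts66Yah colony Bnip3l had 0.10 (1.12%), and Gapdh and Pkm 0.13 each (3.97% and 3.66%). The low-signal genes Hk2 (0.57 and 0.47), Adm (0.54 and 0.43) and Car9 (0.53 and 0.42) were the widest in the Ts65Dn colony and stood with Slc16a3 (0.45 and 0.50) in the Ts66Yah colony, against a median of 0.32 over all probe sets in both.

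Co-variation between embryos was measured after subtracting each group's mean, over 561 pairs of genes in each colony. The glycolytic enzymes tended weakly to be high or low in the same embryos. Their 91 pairs had a median Pearson's r of 0.19 in the Ts65Dn colony (77 above 0) and 0.27 in the Ts66Yah colony (87 above 0), against 0.031 and 0.051 for the same enzymes with all probe sets at or above the median signal. Single enzyme pairs ran from -0.52 to 0.62 in the Ts65Dn colony and from -0.049 to 0.73 in the Ts66Yah colony. The adjusted permutation p was under 10% in 21 and 35 of the 91 pairs, against 44 and 95 of all 561. With litter means removed as well, the medians were 0.20 and 0.31, and with array spread removed 0.14 and 0.27. The other hypoxia-inducible genes were loosely linked, with median r of 0.083 and 0.11 over 55 pairs, against 0.0053 and 0.030 with all probe sets at or above the median signal. With litter means removed their medians were -0.028 and 0.14. Embryos share arrays and litters across all pairs, and pairs are not independent of each other. The permutations moved embryos across litters within each genotype group. Their p values therefore do not set co-variation within litters apart from that between litters.

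The closest pair in the Ts65Dn colony joined Ldha and Slc2a3, the enzyme that makes lactate and the transporter that brings glucose into neurons (r = 0.76, Spearman's rho = 0.66, n = 41 embryos). The permutation p of r, from 100000 two-sided permutations within groups, was 1e-05, the smallest these can give, and 0.0056 after Benjamini-Hochberg adjustment over the 561 pairs; that of rho was 2e-05 (adjusted 0.011). Within groups r was 0.80 in Ts65Dn and 0.70 in EupTs65Dn. It was 0.69 without the 2 embryos farthest from the median of Ldha, 0.64 with litter means removed and 0.70 with array spread removed. In the Ts66Yah colony (n = 47) r was 0.43 (permutation p = 0.0028, adjusted 0.031), with 0.58 in Ts66Yah and 0.23 in EupTs66Yah, and 0.26 without the 2 farthest embryos. There rho was 0.31 (permutation p = 0.034, adjusted 0.19), and r was 0.40 with litter means removed and 0.46 with array spread removed.

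Pfkp with Slc2a3 (r = 0.64, rho = 0.62, permutation p = 3e-05 and 7e-05, adjusted 0.0056 and 0.018) and Gapdh with Ldha (r = 0.62, rho = 0.41, permutation p = 5e-05 and 0.0096, adjusted 0.0070 and 0.17) followed in the Ts65Dn colony. Without the 2 farthest embryos r was 0.52 for Pfkp with Slc2a3 and 0.51 for Gapdh with Ldha. With litter means removed it was 0.41 for Pfkp with Slc2a3 and 0.69 for Gapdh with Ldha. In the Ts66Yah colony both pairs were lower in r, at 0.36 and 0.53. Pfkp with Slc2a3 had 0.093 there with array spread removed and 0.20 without the 2 farthest embryos.

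Aldoa led the Ts66Yah colony: its r was 0.73 with Aldoc (rho = 0.69), 0.67 with Pgam1 (rho = 0.71) and 0.65 with Pkm (rho = 0.60), each with a permutation p of r of 1e-05 and an adjusted p of 0.0011 (n = 47). For rho the permutation p was 1e-05 with Aldoc and with Pgam1 and 2e-05 with Pkm, and the adjusted p was 0.0028 in each. Without the 2 embryos farthest from the median of Aldoa r was 0.66, 0.66 and 0.57, and with litter means removed 0.71, 0.63 and 0.57. Between Aldoa and Aldoc r was 0.76 in Ts66Yah and 0.67 in EupTs66Yah. In the Ts65Dn colony the same pairs had r of 0.36, 0.40 and 0.43, and that of Aldoa with Pgam1 was 0.60 in Ts65Dn and -0.14 in EupTs65Dn; whether the colonies differ in these values was not tested.

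**Figure D4:**
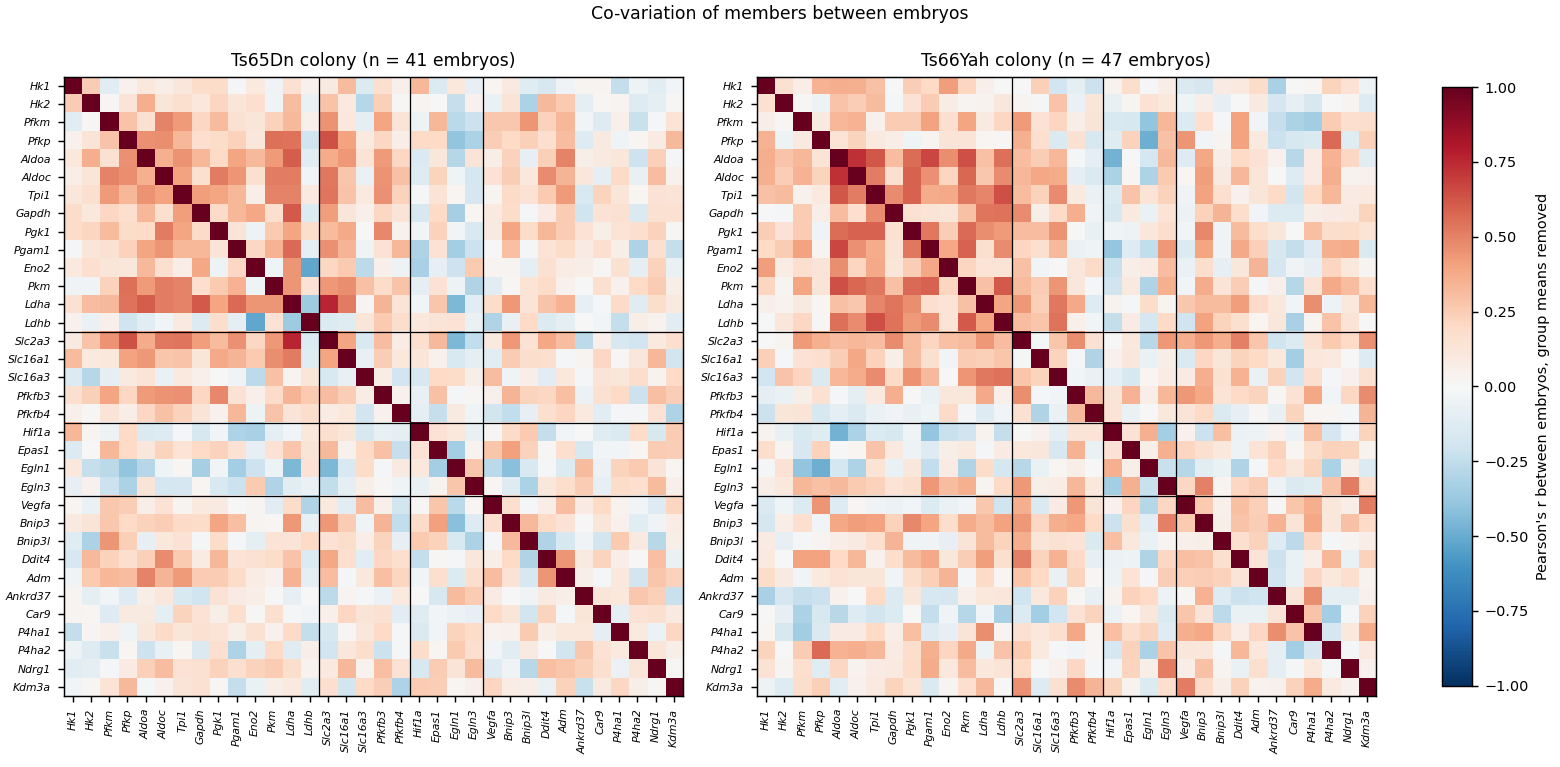
Pearson's r between embryos for each pair of the 34 genes after subtracting group means, in the Ts65Dn colony (n = 41) and the Ts66Yah colony without the low-spread array (n = 47); lines part the 4 families. The block of glycolytic enzymes at the upper left holds mostly positive values, with median r of 0.19 and 0.27, against 0.083 and 0.11 among the hypoxia-inducible genes at the lower right.

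**Figure D5:**
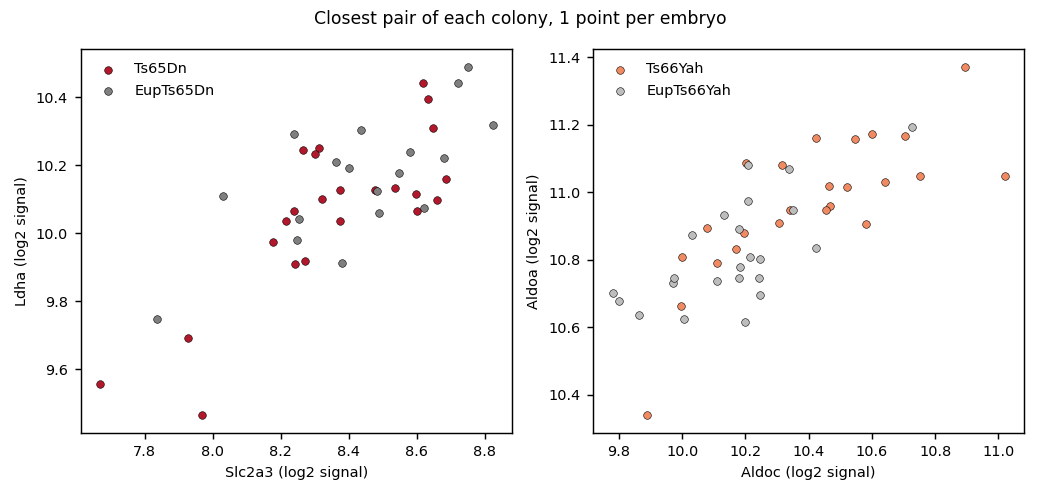
Log2 signals of the closest pair of each colony, 1 point per embryo: Ldha against Slc2a3 in Ts65Dn and EupTs65Dn, and Aldoa against Aldoc in Ts66Yah and EupTs66Yah without the low-spread array. High values of one gene go with high values of the other in both genotypes, with r of 0.76 and 0.73 after subtracting group means.

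Genes of the same pathways outside the group gave few calls. Of 26 measured other glycolysis and pyruvate genes 0 passed in Ts65Dn, where Pdk2 had the smallest p (log2 0.14, limma adjusted p = 0.89). In Ts66Yah without the low-spread array 2 passed with a higher mean, where 0.932% of all probe sets passed. These were Pdk2, a kinase that restrains pyruvate dehydrogenase (1.24-fold, adjusted p = 0.0099), and Gys1, glycogen synthase (1.19-fold, adjusted p = 0.066). Of the 207 probe sets called in that fit 168 were higher. With all arrays Pdk2 passed alone (1.27-fold, adjusted p = 0.046), where 0.171% of all probe sets passed. The part of array spread in these calls was not tested. Of 30 measured other genes of the HIF pathway 0 passed in either trisomy; Stc1, a secreted hypoxia-inducible glycoprotein, came nearest in Ts65Dn (log2 -0.25, adjusted p = 0.22) and Hif3a in Ts66Yah without the low-spread array (0.33, adjusted p = 0.13). Of 10 glucocorticoid-responsive genes 0 passed, with Klf9 (log2 -0.19, adjusted p = 0.84) nearest in Ts65Dn and Cdkn1a (0.20, adjusted p = 0.19) in Ts66Yah. Of 12 immediate early genes 0 passed, with Ier2 (log2 -0.24, adjusted p = 0.54) nearest in Ts65Dn and Jun (0.12, adjusted p = 0.49) in Ts66Yah.

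In the difference of effects 0 genes of these lists passed; Gys1 (log2 -0.26, limma adjusted p = 0.52), Stc1 (-0.30, adjusted p = 0.44), Klf9 (-0.36, adjusted p = 0.48) and Ier2 (-0.40, adjusted p = 0.52) had the smallest p. Between litters the lactate transporter gene Slc16a7, 1 of 26 in its list, was called in the Ts65Dn colony (limma adjusted p = 0.074), against 0.378% of all probe sets. The transcription factor gene Jun, 1 of 12 in its list, was called in the Ts66Yah colony (limma adjusted p = 0.029), against 0.0901%. Slc2a1 (adjusted p = 0.12) and Ak4 (0.16) came nearest in their lists in the Ts66Yah colony, with Cdkn1a (0.33), and Lox and Mt2 (0.10 each) and Egr2 (0.24) in the Ts65Dn colony.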

How the data were processed

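Clariom S high throughput arrays measured total RNA, and the authors deposited log2 signals made with RMA, per the submitters' processing notes; its version and settings were not stated. All 22206 probe sets were kept; 19572 carried 1 gene symbol and 2634 none here. RMA can compress small differences, and the number of embryos limits the precision. No pair of arrays held identical values.

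Groups, litters and sexes came from the labels. Each trisomic group was tested against its euploid group by limma 3.58.1 under R 4.3.3 (lmFit, eBayes, two-sided), Benjamini-Hochberg over all probe sets, threshold 10%. Litters were tested by limma's F test with genotype in the fit. Litter is a dam named in the labels, so the fit with litter as a block was run as an alternative, beside sex, array centring, quantile normalization, array weights, the methods' t-test, a threshold of 0.05, the submitters' marginal criterion, a signal filter, and leaving out arrays or litters. The dam is shared by embryos of both genotypes. Array spread as a covariate, and the 6 narrower arrays left out for the Ts66Yah comparison without the low-spread array, were added after seeing the data. Fits were tested on simulated data without litter effects, with 50 probe sets shifted at each size. At a log2 shift of 0.2 they called 16 of 50 in the Ts65Dn and 14 of 50 in the Ts66Yah comparison. At 0.4 they called 32 and 39 of 50, so most shifts of 0.2 went uncalled. Correlations, with numpy 2.4.6 in Python 3.11.15, used residuals from group means. Figures used matplotlib 3.10.9.

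Genes and lists were chosen with earlier results of these data known. All genes of the group are named; values per group go to the 2 with the smallest p of each family per comparison (and to Adm, added after its values were seen), to 4 per litter test, and for other lists to genes past the threshold or, failing that, the one with the smallest p. Sequences are from RefSeq's promoter table.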

Additional observations from a re-analysis of the deposited data

How the results depend on the processing

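Counts of genes of the group past the threshold were 0 in each comparison as reported. In Ts65Dn the count was 1, Ddit4, with the litter as a block, where 0.527% of all probe sets were called. It was also 1, Ddit4, by the methods' t-test (0.518%) and without Ts65Dn replicate 18 (0.54%). With array weights and without the dimmest probe sets Ddit4 was called too. Leaving out 1 litter at a time the count ran from 0 to 1 (1 without TS137). For array weights, the signal filter and TS137 the share of all probe sets is not given here, so these calls are not set against it. In Ts66Yah with all arrays the submitters' marginal criterion gave 2 (Epas1 and Ndrg1), where 2.13% of all probe sets met it. Without the low-spread array, leaving out the discordant arrays gave 3 (Aldoc, Egln3 and Ndrg1), where 1.47% of all probe sets passed. Leaving out 1 litter gave 0 to 1, with Aldoa called without WT13 and Bnip3 without WT19. Over these litter fits 71 to 306 of all probe sets were called, and the counts for WT13 and WT19 alone are not given here. For litters of the Ts66Yah colony the count was 1 (Vegfa) with sex in the fit or with each array centred on its median, and 0 to 1 without 1 litter (1 without WT15). The difference of the effect of Egln1 turned to -0.011 with all 89 arrays. The litter block changed no other call of the group. Of 456 alternatives for single named genes, 443 kept direction and call, 12 passed where the reported value did not and 1 turned. The causes were not tested. As no named gene passed as reported, a kept call was the absence of one, and no call could be lost. The alternatives include the threshold of 0.05, which could not change such a result. The fit without the 6 narrower arrays counts in both Ts66Yah comparisons, where it is the same fit. Over all probe sets the Ts66Yah count was 38 for the full set, 207 when the low-spread array was dropped and 76 without the 6 narrower arrays; leaving out 1 litter it ran from 15 to 88 with all arrays and from 71 to 306 without the low-spread array. Against 207 it was 91 with array spread as a covariate, 133 after quantile normalization, 103 at a threshold of 0.05, 326 without the discordant arrays and 422 by the marginal criterion; against 38 it was 158 with array weights, 66 without the discordant arrays and 472 by the marginal criterion. In Ts65Dn that criterion gave 246, against 109, and the difference of effects gave 2 with all 89 arrays, against 33. Between litters of the Ts66Yah colony the count over all probe sets was 20, against 0 with all 48 arrays, 57 without WT15, 30 with sex in the fit or after centring, 11 at a threshold of 0.05 and 0 without WT13; in the Ts65Dn colony it was 84, and 47 to 151 without 1 litter. Arrays carry no read depth; low signal limits Hk2, Adm and Car9, whose intervals were the widest of the group in Ts65Dn.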
